A study of Mus musculus with 6 samples.

Results

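The kinesin motor family was described in 2 preparations of engineered mouse macrophages. Its members were all genes in the deposited table whose symbol begins with Kif followed by a digit or c, which gave 43 of 22063 genes. The rule reads names and no measured value, but the family was picked with earlier results of these data known. They were sorted by known role into 14 mitotic kinesins, 14 kinesins of vesicle and organelle transport, 8 ciliary and Hedgehog kinesins and 7 others. RNA sequencing covered 3 CAR-Ms samples and 3 CAR-Trem2-Ms samples. Both groups were macrophages grown for 7 days with M-CSF, the growth factor that drives macrophage differentiation, at 20 ng/mL in DMEM, and both were infected with a lentivirus plasmid that gives the cells a chimeric antigen receptor (CAR), a synthetic receptor for a chosen target. The genotype label reads WT for CAR-Ms and TERM2+ for CAR-Trem2-Ms. The labels of CAR-Trem2-Ms add VD3 at 1 µM for 24 h and sorting by flow cytometry. VD3 also appears in a protocol text common to both groups, so it is not settled whether CAR-Ms received it. Genotype, sorting and possibly VD3 differ together between the groups and cannot be told apart. The labels name neither the strain, the age nor the number of animals, and they give skin as the tissue.

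Kinesins are proteins that use ATP to walk along microtubules or, in some subfamilies, to shorten microtubule ends. Mitotic kinesins build the spindle, move chromosomes and complete cytokinesis, and are made mostly by dividing cells. Transport kinesins carry vesicles, lysosomes and mitochondria, mostly towards the cell edge, while dynein carries cargo back towards the centre. In macrophages such transport spreads lysosomes along microtubules and supplies membrane to the cell surface, and cells cultured with M-CSF can keep dividing.

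Promoter sequences are shown first because most mitotic kinesins carry a short sequence element that was found in few of the transport kinesins with a promoter entry. Many genes of late cell cycle carry the cell cycle genes homology region, TTTGAA in its common form, often beside a CCAAT box. RefSeq promoters of GRCm38 (250 bases before to 50 after an annotated start) matched 33 of the 43 kinesins. Of the transport class, Kif5a, Kif5b, Kif13b, Kifc2 and Kifc3 had no entry. Both motifs were searched on both strands, TTTGAA also as TTCAAA and CCAAT also as ATTGG, and matches of the 2 motifs can overlap by at most an end base. TTTGAA stood in the promoter of 10 of 13 matched mitotic kinesins and of 1 of 9 matched transport kinesins, Kif1a, at only one of its starts. It stood in 17.9% of all 32851 promoters. CCAAT stood in 8 of the 13 mitotic and 3 of the 9 transport kinesins, against 37.4% of all promoters. Both motifs together stood in 7 mitotic and 0 transport kinesins, against 6.95% of all promoters. Shown 5′ to 3′ on the strand of the gene, from 110 bases before the start to 30 bases into the transcript, are 4 mitotic kinesins that were lower in CAR-Trem2-Ms (Kif11, Kif4, Kif23, Kif20b), 2 that were higher on the scale of the main test (Kif22, Kifc1), and the transport kinesin Kif1c, which has neither motif. Capitals mark every match of either motif.
Kif11: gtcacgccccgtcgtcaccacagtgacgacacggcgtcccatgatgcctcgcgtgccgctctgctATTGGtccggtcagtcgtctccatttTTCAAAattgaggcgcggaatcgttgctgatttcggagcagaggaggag
Kif4: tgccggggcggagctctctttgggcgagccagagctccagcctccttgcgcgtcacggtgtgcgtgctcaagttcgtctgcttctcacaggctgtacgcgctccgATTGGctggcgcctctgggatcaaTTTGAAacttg
Kif23: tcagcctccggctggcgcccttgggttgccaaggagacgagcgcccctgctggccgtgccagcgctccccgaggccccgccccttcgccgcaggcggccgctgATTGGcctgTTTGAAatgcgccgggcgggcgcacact
Kif20b: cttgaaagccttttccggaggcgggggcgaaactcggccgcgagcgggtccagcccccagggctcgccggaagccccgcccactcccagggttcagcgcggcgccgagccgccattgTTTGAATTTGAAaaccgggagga
Kif22: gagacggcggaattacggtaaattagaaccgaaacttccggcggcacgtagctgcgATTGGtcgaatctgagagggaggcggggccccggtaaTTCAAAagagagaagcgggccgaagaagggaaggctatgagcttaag
Kifc1: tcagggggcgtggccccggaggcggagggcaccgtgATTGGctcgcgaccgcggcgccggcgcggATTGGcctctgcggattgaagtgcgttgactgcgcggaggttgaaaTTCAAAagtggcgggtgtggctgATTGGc
Kif1c: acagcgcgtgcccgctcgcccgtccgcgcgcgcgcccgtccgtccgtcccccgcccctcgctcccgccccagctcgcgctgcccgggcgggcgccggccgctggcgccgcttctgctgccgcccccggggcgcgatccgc
The windows are chr19:37376272-37376411 (plus strand), chrX:100625955-100626094 (plus), chr9:61946770-61946909 (minus), chr19:34922248-34922387 (plus), chr7:127042391-127042530 (minus), chr17:33890604-33890743 (minus) and chr11:70700438-70700577 (plus). TTTGAA was present in 7 of the 9 mitotic kinesins called lower, all of which had a promoter entry, and in 3 of the 3 called higher. Kif2a and Kif18a, both called lower and not shown, held neither motif. A match describes letters only and shows no binding.

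The labelled cell type was checked against its markers. The summed level of 7 such markers was 3452 to 3477 CPM (read counts scaled to library size with TMM factors) in CAR-Ms and 3922 to 3945 CPM across CAR-Trem2-Ms, with none at 0. The members moved in both directions: Csf1r and Cd68 were lower in mean in CAR-Trem2-Ms and the others higher. Neutrophil markers, 6 in all, summed to 17.9 to 34.2 CPM across CAR-Ms, against 2.39 to 5.31 CPM across CAR-Trem2-Ms. T and B lymphocyte markers summed to 7.78 to 12 CPM for CAR-Ms and 4.18 to 5.63 CPM for CAR-Trem2-Ms. Endothelial markers summed to 3.4 to 4.9 CPM and 0.92 to 2.23 CPM in the same order. Dendritic cell markers went the other way, at 2.02 to 2.53 CPM and 2.82 to 4.10 CPM. Of 4 keratinocyte markers of skin, Krt5, Krt10 and Krt1 had no read in any sample, and 5 fibroblast markers summed to at most 3.41 CPM. Total read counts were 14204468 to 15913100 for the CAR-Ms libraries and smaller for CAR-Trem2-Ms, at 9804959 to 12558021. Mitochondrially encoded genes took 4.60 to 4.70% of counts for CAR-Ms against 13.38 to 13.80% for CAR-Trem2-Ms. The part of RNA from neutrophils or other cell types, and of mitochondrial RNA, in the results below was not tested.

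Most of the tested kinesins changed, in both directions, as most genes did. Of the 43 kinesins, 35 had enough reads for edgeR's quasi-likelihood test, and a gene was called at a Benjamini-Hochberg adjusted p under 0.05. Of the 35, 12 were called higher in CAR-Trem2-Ms, 16 lower and 7 in neither direction. The background was 81.1% called of 11402 tested genes, 40.9% higher and 40.1% lower, so kinesins were called about as often as other genes. The groups did not overlap in 29 of the 35 kinesins and in 81.8% of all tested genes. A change of at least 2-fold was called in 4 kinesins upward (18.7% of all genes) and in 6 downward (14.3% of all genes). The median log2 fold change was -0.23 over the 35 kinesins and 0.03 over all tested genes.

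Mitotic kinesins leaned lower and transport kinesins were split. Of the 13 tested mitotic kinesins, 9 fell, 3 rose and 1 was not called, with a median of -0.56 on the log2 scale. Of the 13 tested transport kinesins, 5 fell, 4 rose and 4 were not called, with a median of -0.10. Over all tested genes 40.9% were called higher and 40.1% lower, with a median of 0.03. The difference of the medians, mitotic minus transport, was -0.45. It depended on which genes count as transport motors: with Kif3a, Kif3b and Kif3c, which also serve cilia, moved out of that class it was -0.23. Kifc5b, a near-identical copy of the mitotic Kifc1, was counted among the others and was called higher (0.29). The difference with Kifc5b in the mitotic class was not computed. The mitotic changes were mostly moderate, with 1 of 13 past 2-fold, downward. Among transport kinesins 4 of 13 passed 2-fold, 3 of them downward. Over all tested genes 18.7% passed 2-fold upward and 14.3% downward, so transport kinesins passed about as often as all genes. In bulk RNA, fewer dividing cells and less mitotic RNA per dividing cell cannot be told apart.

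**Figure D1:**
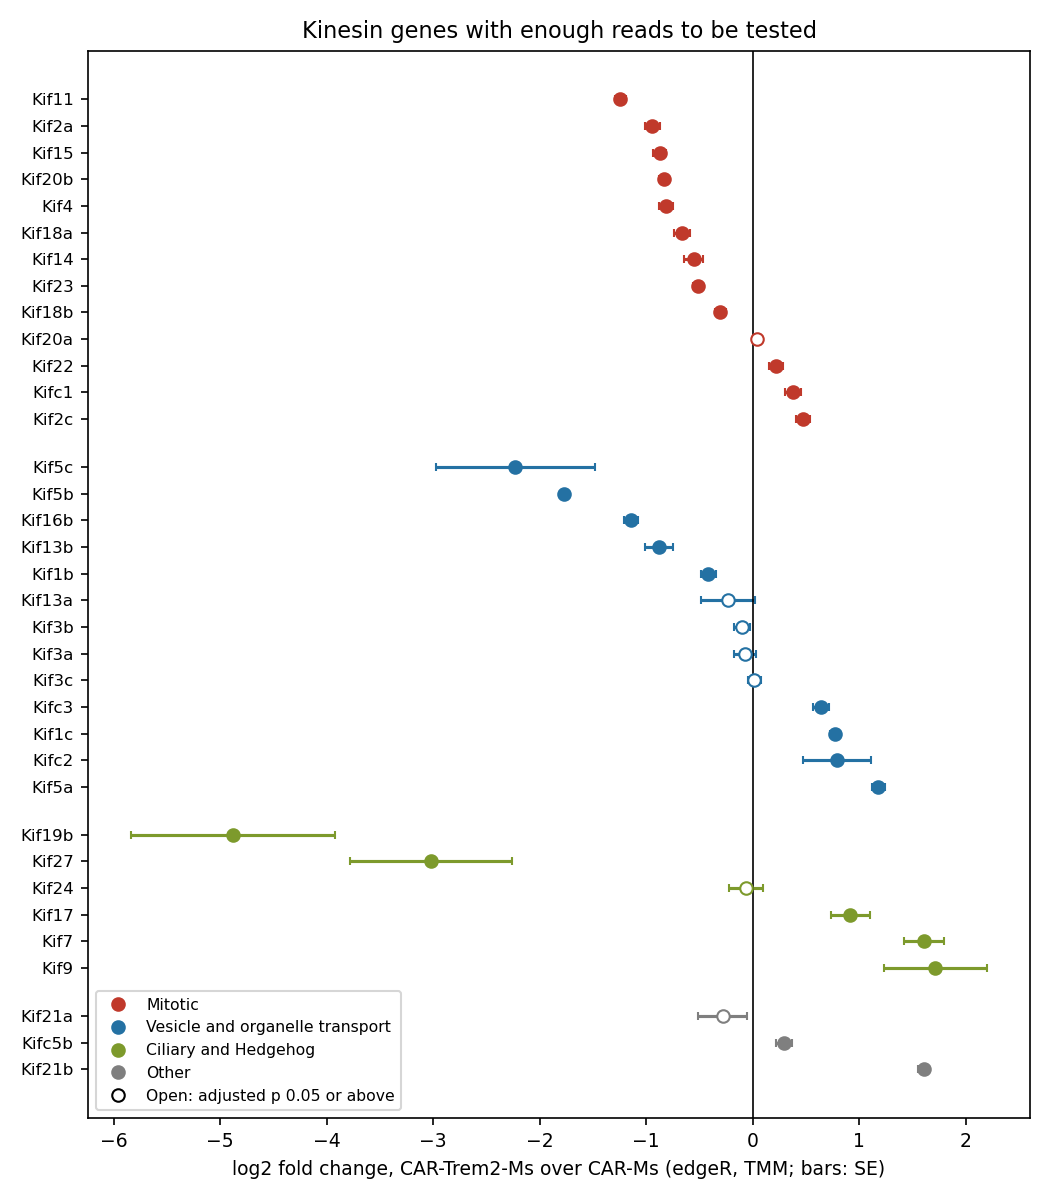
Log2 fold change of the 35 tested kinesins, CAR-Trem2-Ms over CAR-Ms, with the SE as bars, sorted within 4 classes; open circles were not called. Of the mitotic kinesins 9 lie left of 0 and filled, while transport kinesins range from Kif5c at -2.23 to Kif5a at 1.18.

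Among the motors that set up the spindle, Kif11 fell most. Kif11, the motor that pushes spindle poles apart (chromosome 19, 37376403 to 37421859, plus strand of GRCm38), had levels of 130.0, 144 and 135 CPM across CAR-Ms (replicates 1, 2 and 3 in that order, here and below), against 58.7, 57.8 and 56.2 CPM across CAR-Trem2-Ms. Every CAR-Trem2-Ms sample was below every CAR-Ms sample by a wide margin. The fall was 2.37-fold (log2 -1.24 ± 0.05 SE; edgeR adjusted p = 2.1e-18). Kif15, which can stand in for Kif11 at the spindle, went from 86.9 ± 1.26 to 47.5 ± 3.28 CPM (SD, n = 3 each), a log2 change of -0.87 ± 0.06. Kifc1 is a minus-end motor that pulls poles together, in the direction opposite to Kif11. It read 52.7, 66.8 and 63.1 CPM across CAR-Ms, against 75.2, 76.5 and 86.0 CPM across CAR-Trem2-Ms. The groups did not overlap, with CAR-Ms replicate 1 the lowest sample, and Kifc1 rose by 0.38 ± 0.07 on the log2 scale (edgeR adjusted p = 2.9e-05), although it was lower on log2(TPM + 1) (-0.38) and after a correction for GC content and length (-0.16). Kifc5b, a near-identical copy of Kifc1 on the same chromosome, had a log2 change of 0.29 with TMM factors (edgeR adjusted p = 6.4e-04) and of -0.38 on log2(TPM + 1). Reads of these copies may be shared, so the values of both are uncertain.

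Motors that ride on chromosome arms did not move together. Kif4, which organises the central spindle and chromosome axes, went from 84.0 ± 3.19 to 47.8 ± 3.84 CPM, a log2 change of -0.81 ± 0.06 (edgeR adjusted p = 3.5e-12). Kif22, the other chromokinesin, read 57.5, 62.8 and 58.2 CPM across CAR-Ms, against 72.2, 69.4 and 66.0 CPM across CAR-Trem2-Ms. The groups lay close together without overlap. The rise of Kif22, 1.16-fold with TMM factors, turned to -0.46 on log2(TPM + 1) and -0.04 with a length correction, and did not pass with total-count scaling (edgeR adjusted p = 0.177). Up to 832 of 5514 exonic bases of Kif4 also lie in Pdzd11 on the opposite strand, and without strand information reads there cannot be assigned.

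Motors of cytokinesis did not all fall. Kif23, a core part of the centralspindlin complex that bundles midzone microtubules (chromosome 9, 61915905 to 61946774, minus strand), read 202, 192 and 195 CPM across CAR-Ms, against 136, 127 and 148 CPM across CAR-Trem2-Ms. All 3 CAR-Trem2-Ms samples were lower, by 1.43-fold (log2 -0.52 ± 0.04; edgeR adjusted p = 2.2e-11). Kif20a, which brings Aurora B kinase to the midzone, read 173, 174 and 181 CPM across CAR-Ms, against 194, 170 and 179 CPM across CAR-Trem2-Ms. The groups overlapped and Kif20a was not called (log2 0.04 ± 0.04; edgeR adjusted p = 0.339). Kif20a shares 1271 of 4338 exonic bases with Cdc23 on the opposite strand. The direction of Kif20a followed the scaling or correction. It was called higher with upper quartile factors (0.28) and after correction for GC content and length (0.17). It was called lower on log2(TPM + 1) (-0.55). Kif20b, a related midzone motor, went from 140.3 ± 4.30 to 78.7 ± 2.71 CPM, a log2 change of -0.83 ± 0.05. Kif14, which recruits citron kinase to the midbody, went from 39.5 ± 1.60 to 27.0 ± 1.87 CPM (-0.56 ± 0.09), and that fall was lost with a length correction (-0.08) and after correction for GC content and length together (0.05).

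Kinesins that shorten microtubule ends moved in opposite directions. Kif2a, a depolymerase of spindle poles and of interphase microtubules, had a log2 change of -0.94, from 69.8 ± 4.54 to 36.2 ± 2.70 CPM, with 1229 of its 6393 exonic bases shared with Dimt1 on the opposite strand. Kif2c, its close relative at the centromere, went from 55.8 ± 2.76 to 77.4 ± 4.80 CPM and rose by 0.47 ± 0.06 with TMM factors (edgeR adjusted p = 1.2e-07), but was lower on log2(TPM + 1) (-0.27). Kif18a, which limits chromosome swings at metaphase, fell by 0.67 on the log2 scale. Kif18b, which shortens astral microtubules, fell by 0.30, a call lost with upper quartile factors (edgeR adjusted p = 0.224). Kif2b had no read in any sample.

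Other genes of mitosis fell more often than they rose with TMM factors. Of 27 mitotic partners tested, 20 fell, 4 rose and 3 were not called, with a median of -0.26, where 40.1% of all genes were lower and 40.9% higher. Cenpe, the centromere kinesin whose symbol falls outside the family's naming, went from 168.5 ± 4.23 to 120.6 ± 8.51 CPM (SD, n = 3 each), a log2 change of -0.48 ± 0.05. The call for Cenpe was lost with a length correction (0.03) and turned upward after correction for GC content and length (0.24). Mki67, the proliferation antigen Ki-67, went from 959 ± 6.57 to 327 ± 9.36 CPM (-1.55 ± 0.03) and Bub1, a checkpoint kinase, from 205 ± 5.03 to 72.8 ± 2.30 CPM (-1.49 ± 0.04). Cdc20, the activator that triggers anaphase, went the other way, from 111 ± 4.07 to 303 ± 4.13 CPM (1.45 ± 0.04). With upper quartile factors, where 50.1% of all genes were higher and 31.6% lower, the list held 8 rises and 12 falls.

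Among kinesins with a mean of at least 50 reads per sample in the higher group, the largest change was that of Kif5b, the heavy chain of conventional kinesin found in most cells, which carries vesicles, lysosomes and mitochondria. Kif5b read 419, 415 and 416 CPM across CAR-Ms, against 121, 127 and 119 CPM across CAR-Trem2-Ms. Samples within each group lay close together, and the groups were far apart. The fall was 3.41-fold (log2 -1.77 ± 0.03 SE; edgeR adjusted p = 1.2e-26). Kif5a, a heavy chain best known from neurons (chromosome 10, 127225696 to 127263348, minus strand), read 47.5, 51.6 and 49.8 CPM across CAR-Ms, against 117, 117 and 104 CPM across CAR-Trem2-Ms. All 3 CAR-Trem2-Ms samples were higher, a rise of 2.27-fold (log2 1.18 ± 0.06; edgeR adjusted p = 9.2e-17). Kif5c, the third heavy chain, had 14, 15 and 12 reads in the CAR-Ms samples against 1, 0 and 5, and was called lower (edgeR adjusted p = 0.0081). Relative to library totals that is a ratio of 5.29 (95% exact interval 2.23 to 15.2, counting error only).

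The make-up of conventional kinesin differed between the groups on a scale that allows genes to be compared. By TPM, which the authors scaled for gene length, Kif5b held 88.9, 88.7 and 88.6% of the summed level of Kif5a, Kif5b and Kif5c across CAR-Ms, against 47.1, 49.0 and 50.1% across CAR-Trem2-Ms. Kif5a held 11.0 ± 0.31% for CAR-Ms and 51.2 ± 1.57% for CAR-Trem2-Ms (SD, n = 3 each). In CAR-Trem2-Ms the order was thus not the same in every sample: Kif5a was above Kif5b in replicates 1 and 2 and below it in replicate 3. By reads, not scaled for length, Kif5b was above Kif5a in every CAR-Trem2-Ms sample (1443, 1200 and 1397 against 1401, 1097 and 1219). The shares do not depend on library scaling, but they do depend on the authors' length scaling. Correction for GC content and length moved the log2 fold change of Kif5b from -1.77 to -1.10 and that of Kif5a from 1.18 to 1.39. The shares were singled out after the values were seen, so no test is given.

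The kinesin-2 motors Kif3a, Kif3b and Kif3c, which move late endosomes, melanosomes and ciliary cargo, did not pass the test. Kif3c read 75.5, 77.6 and 75.6 CPM across CAR-Ms, against 71.9, 85.7 and 74.5 CPM across CAR-Trem2-Ms. The CAR-Trem2-Ms samples spread around the CAR-Ms level, and the log2 fold change was 0.02 ± 0.06 (edgeR adjusted p = 0.824). Kif3a and Kif3b, which pair with each other in a dimer, had log2 values of -0.07 ± 0.10 and -0.10 ± 0.08. These calls rested on the scaling: on log2(TPM + 1) Kif3a, Kif3b and Kif3c were called lower (-0.86, -0.71 and -1.10), and with a correction for GC content and length Kif3b and Kif3c were called higher (0.37 and 0.40). Kif3b was also called lower with total-count scaling (-0.23). An annotated antisense gene covers 2617 of the 7406 exonic bases of Kif3c. Kifap3, the cargo adaptor of kinesin-2, went from 44.6 ± 3.08 to 25.8 ± 2.80 CPM and was called lower (-0.79 ± 0.09). By mean TPM it was lower as well, at 18.4 for CAR-Ms and 6.59 for CAR-Trem2-Ms.

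Kinesin-3 motors, fast carriers of vesicles and endosomes, ranged from a fall past 2-fold to a rise. Kif16b, which binds early endosomes through a lipid-binding PX domain (chromosome 2, 142617474 to 142901531, minus strand), read 78.0, 78.7 and 76.7 CPM across CAR-Ms, against 34.7, 37.6 and 33.7 CPM across CAR-Trem2-Ms. The groups were far apart for their spread, and the fall was 2.21-fold (log2 -1.14 ± 0.07; edgeR adjusted p = 3.2e-15). Kif13b fell by 0.88 ± 0.13 on the log2 scale, with CAR-Trem2-Ms replicate 3 the lowest sample at 10.5 CPM, and Kif1b by 0.42 ± 0.07. The fall of Kif1b was lost with a length correction (0.09) and when corrected for both GC content and length (0.16). Kif13a was not called, at 4.58 ± 0.21 and 3.92 ± 0.81 CPM. Kif1c, which carries integrins and has a described role at macrophage podosomes (chromosome 11, 70700548 to 70731964, plus strand), had levels of 82.1, 85.8 and 82.5 CPM across CAR-Ms, against 138, 149 and 141 CPM across CAR-Trem2-Ms. All CAR-Trem2-Ms samples were higher, by 1.71-fold (log2 0.77 ± 0.05; edgeR adjusted p = 6.5e-15), a call lost on log2(TPM + 1) at 0.11.

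Minus-end transport kinesins were higher with TMM factors. Kifc3, which binds membrane rafts and cell junctions, read 32.2, 32.3 and 30.6 CPM across CAR-Ms, against 48.5, 47.0 and 52.6 CPM across CAR-Trem2-Ms. The groups did not overlap, and the rise of 1.56-fold (log2 0.64 ± 0.08) turned to -0.16 on log2(TPM + 1) and to -0.01 with the correction for GC content and length, neither of them called. Kifc2 had 27 to 35 reads per CAR-Ms sample and 33 to 43 per CAR-Trem2-Ms sample and was called higher (log2 0.79 ± 0.32; edgeR adjusted p = 0.0256). The call for Kifc2 was lost without CAR-Ms replicate 2 (adjusted p = 0.0949) or 3 (0.0777) and without CAR-Trem2-Ms replicate 2 (0.0518) or 3 (0.0674) in edgeR. It was also lost with total-count scaling (edgeR adjusted p = 0.0574), on log2(TPM + 1) (0.06; limma adjusted p = 0.714) and after correction for GC content and length (0.35; edgeR adjusted p = 0.321).

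**Figure D2:**
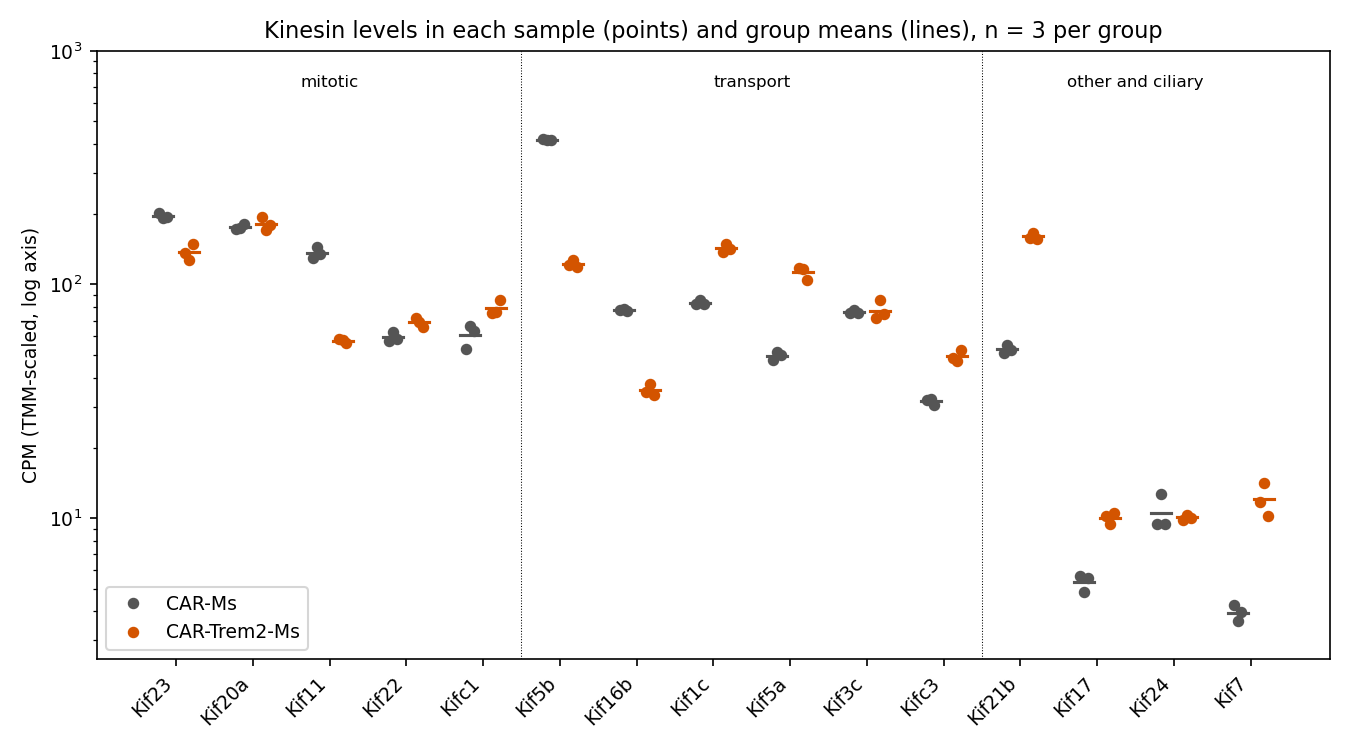
CPM of 15 kinesins in each of the 6 samples (points, log axis), with group means as lines, grouped by class. Kif5b drops from about 417 to 122.5 CPM in mean while Kif5a, Kif1c and Kif21b are higher in every CAR-Trem2-Ms sample, and Kif20a, Kif3c and Kif24 overlap.

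Summed over members, both classes were lower, and Kif5b carried the fall of the transport class. Mitotic kinesins summed to 1247 ± 20.2 CPM across CAR-Ms, against 944 ± 25.6 CPM across CAR-Trem2-Ms (SD, n = 3 each). Transport kinesins summed to 894 ± 5.89 and 668 ± 23.7 CPM. Without Kif5b, left out after its values were seen, they summed to 477 ± 7.19 and 546 ± 19.3 CPM, so the direction turned. On the TPM scale mitotic kinesins held 65.7 ± 0.17% of the summed level of all kinesins for CAR-Ms and 63.3 ± 0.59% for CAR-Trem2-Ms. Transport kinesins held 29.2 ± 0.05% and 26.7 ± 0.35%. By TPM the transport sum without Kif5b was 161 for CAR-Ms and 113 for CAR-Trem2-Ms, so its turn upward was not seen on that scale.

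Light chains and cargo adaptors of the transport motors did not share a direction. Among the 19 with a test, 11 rose and 6 fell, 2 being not called, with a median of 0.20, beside 40.9% higher and 40.1% lower over all genes. Fyco1, which links late endosomes and autophagosomes to kinesin, had a log2 change of 2.05, from 12.4 ± 1.42 to 51.6 ± 5.35 CPM. The JIP family split, with Mapk8ip3 rising from 83.6 ± 3.12 to 216 ± 4.20 CPM (1.37 ± 0.04) and Spag9, its relative, falling from 238 ± 9.01 to 95.6 ± 3.96 CPM (-1.32 ± 0.04). Both encode scaffolds that join kinesin-1 to cargo. The light chains Klc1, Klc2, Klc3 and Klc4 all rose with TMM factors, Klc2 by 0.96 and Klc1 by 0.41 on the log2 scale; they were named after their values were seen. By mean TPM Klc1 was lower in CAR-Trem2-Ms, at 45.2 and 39.5, and so was Klc4, at 25.2 and 19.9. Rises and falls of this list were 5 and 12 of 18 on log2(TPM + 1), where 17.5% of all genes were higher and 64.2% lower. They were 8 and 9 of 19 when corrected for both GC content and length, where the shares of all genes were 35.5% and 43.3%.

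The opposing motor and the track were mixed as well, as were all genes (40.9% higher, 40.1% lower). Of 23 tested genes of cytoplasmic dynein and its activator dynactin, 11 rose, 10 fell and 2 were not called (median -0.05). Hook2, a dynein adaptor, and Dctn2, the dynactin subunit dynamitin, rose by 1.43 and 1.18 on the log2 scale, and Actr1a, the actin-related filament of dynactin, fell by 1.27. Of 15 tested tubulins, 7 rose, 3 fell and 5 were not called (median 0.04). Tuba1c rose from 213 ± 7.80 to 516 ± 13.8 CPM (1.28 ± 0.03), and the low genes Tubg2 and Tubb4a rose by 2.28 and 1.16. Tubulin copies are similar enough that reads may be shared, which leaves single members uncertain. On log2(TPM + 1) 10 of the 15 tubulins and 18 of the 23 dynein and dynactin genes were lower, beside 64.2% of all genes. When corrected for both GC content and length 8 of the 15 tubulins were lower, beside 43.3% of all genes.

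Ciliary kinesins and those of Hedgehog signalling were low. Kif7, a regulator of Gli factors at the tip of the cilium, had 60 to 63 reads per CAR-Ms sample and 120 to 141 per CAR-Trem2-Ms sample, which is 4.25, 3.62 and 3.95 CPM against 11.8, 14.1 and 10.2 CPM. It rose 3.05-fold without overlap (log2 1.61 ± 0.19; edgeR adjusted p = 1.3e-08). An annotated antisense gene covers 877 of its 4581 exonic bases. Kif17, a homodimeric motor of cilia and dendrites, read 5.66, 4.82 and 5.53 CPM across CAR-Ms, against 10.2, 9.46 and 10.5 CPM across CAR-Trem2-Ms, a rise of 1.89-fold that did not pass on log2(TPM + 1) (0.16). Kif24, a centriole kinesin, read 9.44, 12.7 and 9.49 CPM across CAR-Ms, against 9.87, 10.3 and 10.1 CPM across CAR-Trem2-Ms. Its groups overlapped, with the highest value in CAR-Ms replicate 2, and it was not called (edgeR adjusted p = 0.704). Kif9, described at macrophage podosomes and in motile cilia, had 4, 10 and 13 reads in the CAR-Ms samples against 25, 23 and 15 and was called higher (log2 1.72 ± 0.48). Kif27, a relative of Kif7, had 15, 21 and 13 reads against 3, 1 and 0, a ratio of 9.49 relative to library totals (95% exact interval 3.48 to 36.2), and was called lower. Kif19b, annotated as Gm4869 in GENCODE M21, had 11, 19 and 24 reads against 0, 0 and 1 (ratio 41.8, interval 7.19 to 1682) and was called lower. It was not tested without CAR-Ms replicate 2 or 3, since too few reads were left.

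Of the other kinesins, Kif21b stood highest in its change. Kif21b, which pauses growing microtubules (chromosome 1, 136131389 to 136177998, plus strand), had levels of 50.8, 55.1 and 52.3 CPM across CAR-Ms, against 158, 167 and 157 CPM across CAR-Trem2-Ms. The groups were far apart, and the rise of 3.04-fold (log2 1.60 ± 0.05; edgeR adjusted p = 1.1e-21) also passed on log2(TPM + 1), at 0.93, and after correction for GC content and length, at 1.73. Its relative Kif21a read 5.87, 4.64 and 5.53 CPM across CAR-Ms, against 4.18, 4.57 and 4.44 CPM across CAR-Trem2-Ms and was not called. In the same class as Kif21b, Kifc5b read 43.4, 46.3 and 42.0 CPM across CAR-Ms, against 53.5, 50.3 and 57.4 CPM across CAR-Trem2-Ms.

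The 8 kinesins without enough reads for the test were Kif1a, Kif2b, Kif6, Kif12, Kif19a, Kif26a, Kif26b and Kif28. Kif2b and Kif6 had no read in any sample. For a group without a read, 3 reads over the group were taken as a floor, which is a setting and not a measured limit. Kif1a, a neuronal vesicle motor, had 27 reads over the 3 CAR-Ms samples and 10 over the 3 of CAR-Trem2-Ms. Kif19a had 2, 2 and 8 reads against 0 in all CAR-Trem2-Ms samples. Set against that floor it was 3.10-fold lower relative to library totals. That value takes the CAR-Ms reads as exact, and most of them came from CAR-Ms replicate 3, so it is not a firm lower bound. Kif26a had 2, 0 and 1 reads against 2, 0 and 12, and Kif26b had 4 reads, all in CAR-Trem2-Ms replicate 3, the sample that also held the 12 reads of Kif26a. Kif28 had 5 reads in CAR-Ms and Kif12 1 read in CAR-Trem2-Ms.

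The order of the fold changes ran with the base composition of the transcripts. Kinesins called higher had a median GC content of 56.2% in their longest annotated transcript and those called lower 46.4%. Spearman's rho between log2 fold change and GC content was 0.64 over the 35 tested kinesins, 0.81 over the 13 mitotic and 0.80 over the 13 transport members, and 0.28 over the 11382 tested genes with a GC value. With gene length, inferred from the deposited counts and TPM, rho was -0.27 over the tested kinesins, -0.56 over the mitotic and -0.70 over the transport members, and -0.32 over all genes. These are correlations across genes that share the same 6 libraries, given as a description. Kif11 (42.2% GC) and Kif5b (41.1%) stood among the falls, and Kif21b (56.7%) and Kif5a (53.8%) among the rises. After correction for GC content and length the log2 fold changes were -0.66 for Kif11, -1.10 for Kif5b, -0.56 for Kif16b, 1.73 for Kif21b, 1.39 for Kif5a and 1.41 for Kif7, all still called in edgeR. In that fit 2 mitotic kinesins, Kif2c and Kif20a, were higher and 9 lower, against 35.5% higher and 43.3% lower over all genes. The mitotic median was -0.36.

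**Figure D3:**
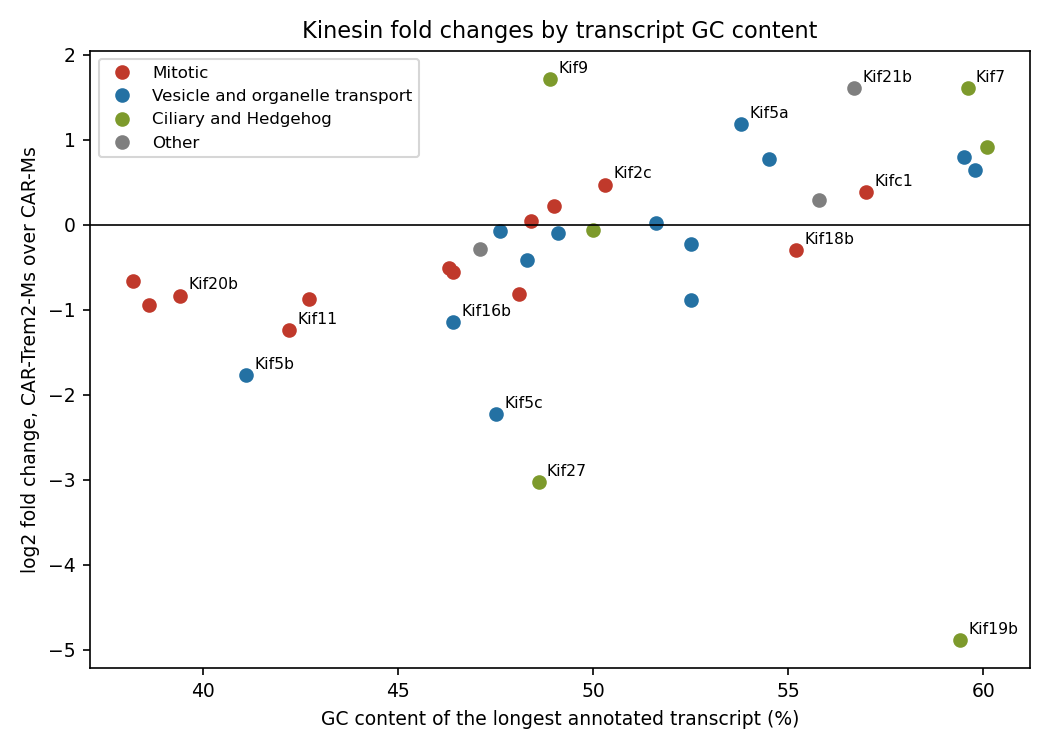
Log2 fold change (CAR-Trem2-Ms over CAR-Ms) of the 35 tested kinesins against the GC content of the longest annotated transcript in percent, coloured by class. Points rise from left to right (Spearman's rho 0.64), with the low-count genes Kif19b, Kif27, Kif5c and Kif9 away from the rest.

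The position of the kinesins relative to 0 followed the scaling. Over all tested genes, TMM factors gave a median of 0.03, upper quartile factors 0.26 (5714 genes higher, 3606 lower), scaling by total counts -0.10 and log2(TPM + 1) -0.63. Mitotic kinesins had medians of -0.56, -0.32, -0.68 and -1.27 in the same order. Transport kinesins had medians of -0.10, 0.13, -0.23 and -0.78. The first 3 settings shift all genes by a near constant, so the distance between classes cannot differ among them. The length correction changes genes unequally: it gave medians of -0.45 for mitotic kinesins, 0.09 for transport kinesins and -0.08 for all genes, so transport kinesins lay above all genes there and below them with TMM factors. On log2(TPM + 1), where 64.2% of 10824 genes were called lower and 17.5% higher, all 13 mitotic kinesins were called lower, as were 8 of 12 transport kinesins.

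**Figure D4:**
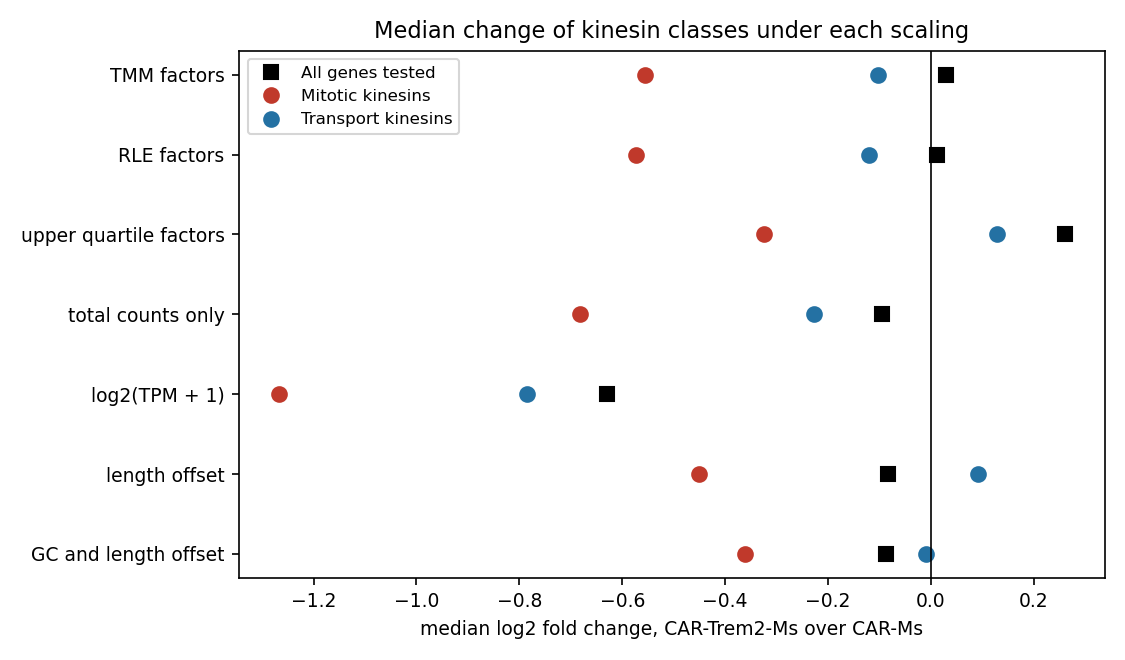
Median log2 fold change (CAR-Trem2-Ms over CAR-Ms) of all tested genes (squares), mitotic kinesins and transport kinesins (circles) under 7 scalings or corrections. The first 4 differ by library factors that move the 3 medians together; the mitotic median ranges from -1.27 on log2(TPM + 1) to -0.32 with upper quartile factors.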

How the data were processed

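RNA was sequenced from 3 CAR-Ms and 3 CAR-Trem2-Ms samples. Per the file headers, the authors deposited raw read counts per gene and TPM values per sample, and also their group means of TPM, a log2 fold change, a p-value and its adjusted form. The submitters' processing notes name StringTie 1.3.1, HISAT2, Bowtie2 2.2.8, fastp 0.18.0 and the mm10 build. Which tool counted reads, whether by strand, and on which annotation is not stated by any source used here, so reads of a gene and its antisense partner cannot be assigned. No label states that replicates are separate cultures or animals; the p-values then measure the spread of these samples alone, and that spread may be technical. Replicate pairs differed beyond sampling noise (chi-square per degree of freedom 2.19 to 3.34), so each was counted once.

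Counts were tested over the whole table with edgeR 4.0.16 in R 4.3.3 (quasi-likelihood test, TMM factors, filterByExpr, Benjamini-Hochberg adjustment over 11402 genes), tested first on simulated data. The simulation changed few genes, as many up as down, so it did not check the scaling where most genes change. Each SE is the log2 fold change over the square root of F. Alternatives used DESeq2 1.42.0 and limma 3.58.1 (voom, and trend on log2(TPM + 1) over genes at 1 TPM or more in 3 samples). Others used per-library offsets from splines of log counts on length and GC content. Length was inferred from the deposited counts and TPM, and GC content was taken from GENCODE M21 transcripts (11382 of 11402 genes). The GC offset was added after seeing the data. Gene positions are from GENCODE M21 and promoters from RefSeq, both GRCm38. The members and lists were chosen with earlier results of these data known. Values per sample are given for kinesins with a mean of at least 50 reads per sample in the higher group and a called change of 2-fold, and for the 4 highest by TPM in each class; from each partner list, the 3 called members with the largest change and 50 reads, and Cenpe. Kifap3 and the light chains were named outside this rule.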

Additional observations from a re-analysis of the deposited data

How the results depend on the processing

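Each of the 35 tested kinesins kept its call, and each called one its direction, with RLE factors, without a filter, with a minimum of 10 reads in all samples of either group, in DESeq2 and in limma-voom; without a filter 41 kinesins entered and 17 were lower. Replicate numbers did not pair the samples (correlation of same-numbered deviations -0.027 to 0.032), and the replicate block left 28 kinesins called (9188 genes), with no kinesin call changed. Among kinesins, leaving out single samples changed only the call of Kifc2 and the testing of Kif19b. Requiring a 2-fold change left 3765 genes (2136 higher, 1629 lower), 10 kinesins (4 higher, 6 lower), 1 mitotic kinesin (0 higher, 1 lower), 4 transport kinesins (1 higher, 3 lower) and 18 partner genes (11 higher, 7 lower). On log2(TPM + 1), 1890 genes, 3 kinesins, 0 mitotic, 1 transport and 12 partner genes were higher, and 6946 genes, 8 transport kinesins and 64 partner genes lower; on log2(TPM + 0.1) the values were 1881, 3, 0, 1 and 12 higher and 6927, 8 and 64 lower. With upper quartile factors 25 partner genes were lower. The mitotic minus transport median was -0.34 on log2(TPM + 0.1), -0.54 with the length offset, -0.35 with the GC and length offset and -0.23 with Kif3a, Kif3b and Kif3c moved. The cause of these shifts was not tested.

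Directions turned as follows. On log2(TPM + 1) and log2(TPM + 0.1), in that order, Kifc3 was -0.157 and -0.164, Kif2c -0.270 and -0.278, Kifc1 -0.384 and -0.392, Kifc5b -0.383 and -0.397, Kif22 -0.464 and -0.473, Kif20a -0.552 and -0.559, and Kif3c -1.10 and -1.16. With the length offset Kif1b was 0.0915, Kif22 -0.0433, Kif3b 0.314 and Cenpe 0.0255. With the GC and length offset Kifc3 was -0.00882, Kif14 0.0534, Kif1b 0.156, Kifc1 -0.157, Kifc5b -0.0984, Kif3b 0.365 and Cenpe 0.241. Kif19b, Kif27, Kif5c and Kif9 were too low for the TPM test, and their precision is limited by depth.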

Other observations

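The authors' deposited table gives its own adjusted p-value and log2 fold change for each kinesin. Of 43 kinesins, 28 in the authors' deposited table had an adjusted p under 0.05, of which 21 had a log2 fold change below 0 and 7 above 0. For 5 of these, the sign in the authors' deposited table was opposite to that of edgeR on the counts here: Kif22 (-0.47), Kif2c (-0.28), Kifc1 (-0.40), Kifc3 (-0.15) and Kifc5b (-0.40) were each listed as lower there and called higher here. The fold change in the authors' deposited table is the log2 ratio of mean TPM. Its adjusted p was 2.3e-10 for Kif2c, and for Kif3c, listed at -1.17 in the authors' deposited table, it was 0.896.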
